A study of Macaca mulatta with 6 samples.

Results

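Proteasome subunits and ubiquitin-conjugating enzymes were followed on 6 arrays, 1 per monkey, of serotonin neurons laser-captured from the dorsal raphe nucleus of female rhesus macaques. A probe set was taken when the platform annotation gave it exactly 1 gene symbol, and that symbol began with PSMA, PSMB, PSMC, PSMD or PSME and a digit, or with UBE2. This found 114 probe sets of 52 genes among 52766 probe sets that are not controls and 14132 named genes. They comprise 26 probe sets of 12 core genes (PSMA and PSMB), 27 of 15 cap genes (PSMC, PSMD and PSME), and 53 of 24 E2 genes (UBE2). The remaining 8 probe sets belong to PSMC3IP, which meets the rule by spelling alone. It encodes a protein that binds a cap ATPase and acts in meiotic recombination, and it is described apart. The rule uses names only; it was written with earlier results of these data known.

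The groups are placebo, estrogen, and estrogen together with progesterone, with 2 animals each. Steroids were given by silastic capsules under the skin for 1 month. Only the placebo titles are tagged Ovx, taken to mean ovariectomized; the hormone titles give no more than the treatment. The labels used here give no dose, no age and no number of captured cells. Each array measured RNA pooled over the captured cells of 1 animal, so fewer cells of a type and less RNA per cell cannot be told apart.

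The proteasome is the barrel-shaped protease that degrades proteins tagged with ubiquitin. Its core is built of alpha rings, which gate entry, and beta rings, which carry the proteolytic sites. The cap binds ubiquitin chains, removes them and unfolds the substrate with a ring of ATPases. Ubiquitin reaches the substrate through an activating enzyme (E1), a conjugating enzyme (E2) and a ligase (E3), and the E2 helps set which chain is built. In neurons this system clears misfolded proteins and turns over synaptic proteins.

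The arrays stood far apart in signal over background, and this touches every value below. Each array was given a floor, below which a signal (a deposited linear intensity) was not told from background: the 95th percentile of 59 bacterial and tag control probe sets. Floors were 216 and 221 for placebo, 29.99 and 51.6 for estrogen, and 74.9 and 283 for the combined treatment. Placebo 1, placebo 2 and estrogen+progesterone 2 had the smaller shares of probe sets above their floor and are called low-signal arrays; the other 3 are called high-signal arrays. Across the 26383 tested probe sets pairs of high-signal arrays had r = 0.842 to 0.913, and the pair given both hormones had r = 0.000477. The placebo pair had r = 0.518, placebo against high-signal arrays gave 0.427 to 0.5175, and placebo against estrogen+progesterone 2 gave 0.290 to 0.333, so the low-signal arrays were not of 1 kind. Over the 90 tested member probe sets pairs of high-signal arrays had r = 0.852 to 0.941, and the pair given both hormones had 0.0306. The placebo pair had 0.607 over these members. Placebo gave 0.374 to 0.621 against high-signal arrays and 0.147 to 0.295 against estrogen+progesterone 2. Probe sets are not independent replicates, and these r values describe the arrays only.

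The captured tissue held other cell types. Astrocyte markers, 10 of the 12 listed named on the array, summed to signals of 25456 to 28561 with placebo, 76997 to 92397 with estrogen, and 85362 and 4646 with both hormones. General neuronal markers, 6 of 11 named, summed to 7742 to 12299, 28414 to 30027, and 25408 and 2275 in the same order. Oligodendrocyte markers, 5 of 10 named, summed to 34988 to 49359, 43139 to 57406, and 58180 and 3002. Microglial markers, 10 of 10 named, ran from 3286 to 3967, from 4480.1 to 4658, and stood at 5913 and 2244. Endothelial markers, 8 of 8 named, ran from 1785 to 2364, from 1653 to 1722, and stood at 2592 and 1314. Serotonin neuron markers, 8 of 11 named, ran from 1996 to 2158, from 1063 to 1774, and stood at 1648 and 2375; TPH2, the defining enzyme, was above the floor on the estrogen arrays alone. HBB and ALAS2, the erythrocyte markers named of 4 listed, summed to 601 to 804, 65.5 to 141, and 172 and 501. Above the floor on the 6 arrays were 7 to 10 of the astrocyte, 5 to 6 of the neuronal, 3 to 5 of the oligodendrocyte, 3 to 10 of the microglial, 1 to 6 of the endothelial and 4 to 7 of the serotonin neuron markers named, and none had a signal of 0. In these sums of deposited signals placebo and estrogen+progesterone 2 stood low for neurons and astrocytes alike. After normalization, estrogen minus placebo was above 0 for 2 of 6 tested neuronal markers (median log2 difference -0.10), 8 of 9 astrocyte markers (1.16) and 3 of 5 oligodendrocyte markers (0.52). For both hormones minus estrogen it was above 0 for 0 of 6, 0 of 9 and 0 of 5, with medians of -1.22, -1.25 and -1.52. Serotonin neuron markers were above 0 for 1 of 5 with estrogen minus placebo (-0.34) and 3 of 5 with both hormones minus estrogen (0.12). In the same order, microglial markers had 5 of 10 (-0.028) and 1 of 10 (-0.64), and endothelial markers 2 of 5 (-0.066) and 1 of 5 (-0.63). Erythrocyte markers had 0 of 2 (-1.80) and 2 of 2 (0.56). Of all tested genes, 60.6% were above 0 for estrogen minus placebo (median 0.28) and 34.0% for both hormones minus estrogen (median -0.44). The part of cell makeup in the results below was not tested.

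Members were seen on most arrays more often than the average probe set. On the high-signal arrays 84.6% of the core probe sets were above the floor on each array, 77.8% to 85.2% of the cap probe sets and 86.8% to 92.5% of the E2 probe sets, against 49.6% to 62.2% of all probe sets. On the placebo arrays the shares were 57.7% and 76.9% for the core, 51.9% on both for the cap, and 49.1% and 52.8% for the E2 enzymes, against 37.3% and 36.3% of all. Estrogen+progesterone 2 was the exception, with 30.8%, 22.2% and 22.6% of core, cap and E2 probe sets above its floor, against 28.7% of all. Of the 114 member probe sets, 90 exceeded the floor on each of the 3 high-signal arrays and 17 on each of the 3 low-signal ones; 16 were above it on all 6 arrays and 5 on none.

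**Figure D1:**
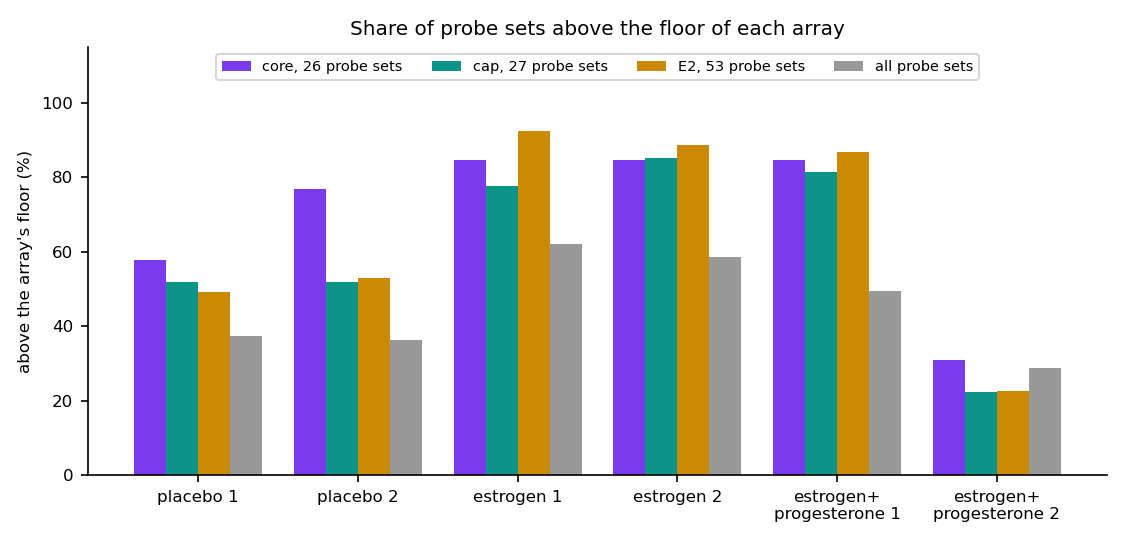
Share of probe sets above the floor of each array (%, vertical axis) for the 26 core, 27 cap and 53 E2 probe sets and for all probe sets, by array (horizontal axis). Bars of the members exceed the grey bar on 5 arrays, while on estrogen+progesterone 2 all bars lie between 22.2% and 30.8%.

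Where a gene had several tested probe sets, the one highest on average stands for it. A probe set was tested when its mean normalized log2 value was at or above the 50th percentile, which 90 of the 114 member probe sets reached. They cover 10 core, 15 cap and 20 E2 genes, and PSMC3IP. PSMB8, PSMB11, UBE2K, UBE2M, UBE2T and UBE2U did not reach it. Signals below are deposited intensities on each array, the replicates given in their order, and they compare arrays for 1 probe set, not probe sets with each other.

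Among the alpha subunits, PSMA7 had signals of 3675 and 5517 under placebo, 8520.1 and 5727 under estrogen and 10285 and 1563 under the combination. It exceeded the floor on every array and was lowest on estrogen+progesterone 2. PSMA2 had 388 and 436 under placebo, 559.9 and 468 under estrogen and 797 and 317 under the combination. It was likewise above the floor on all 6, with the estrogen arrays close to placebo. Another of its 5 tested probe sets had 164 and 397 under placebo, 1290 and 1286 under estrogen and 1427 and 43.5 under the combination. That one was below the floor on placebo 1 and estrogen+progesterone 2. PSMA1 had 219 and 1007 under placebo, 1549.8 and 1415 under estrogen and 1214 and 23.99 under the combination, and PSMA3 had 660.4 and 1042 under placebo, 978 and 1789 under estrogen and 2229 and 235 under the combination. Both were lowest on estrogen+progesterone 2, below its floor, and PSMA1 was well apart on the 2 placebo arrays too. The tails of alpha subunits form the gate through which substrates enter.

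The beta ring holds the proteolytic subunits. PSMB5, which carries the chymotrypsin-like site, had signals of 532 and 728 under placebo, 1628 and 1404 under estrogen and 1362 and 246 under the combination. PSMB6, which carries the caspase-like site, had 571 and 578 under placebo, 844 and 1391 under estrogen and 1158 and 77.6 under the combination. PSMB7, which carries the trypsin-like site, had 14.1 and 109 under placebo, 975 and 1946 under estrogen and 1121 and 356 under the combination. All 3 were higher on the high-signal arrays than on placebo as deposited, and PSMB7 alone of the 3 failed to reach the floor with placebo and exceeded it on estrogen+progesterone 2.

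The structural beta subunits PSMB1 and PSMB2 had 135 and 467 under placebo, 1493 and 1585 under estrogen and 1303 and 87.4 under the combination for the first and 377 and 630.0 under placebo, 1351 and 1511 under estrogen and 1392 and 138 under the combination for the second. PSMB10, which replaces PSMB7 in the interferon-induced immunoproteasome, had 501 and 299 under placebo, 1150.2 and 608 under estrogen and 611 and 59.6 under the combination. PSMB8, another immunoproteasome subunit, was not tested; it had 23.4 and 256 under placebo, 42.5 and 10.8 under estrogen and 27.6 and 150.1 under the combination and was above the floor on placebo 2 and estrogen 1. PSMB11, known from the thymus, had 330.0 and 13.96 under placebo, 3.18 and 22.3 under estrogen and 43.4 and 276 under the combination and was above it on placebo 1 alone. On estrogen+progesterone 2, 8 of the 10 tested core genes had their lowest normalized value of the 6 arrays, against 43.2% of all tested genes.

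The cap's ATPases form the ring that unfolds and threads the substrate. PSMC2 had signals of 406 and 1609 under placebo, 2007 and 2108 under estrogen and 1685 and 181 under the combination, and PSMC5 had 1161 and 973 under placebo, 1498 and 2438 under estrogen and 1075 and 19.1 under the combination. PSMC5 was below the floor on estrogen+progesterone 2 alone. PSMC6 had 49.1 and 154 under placebo, 411 and 487 under estrogen and 334 and 233 under the combination, and PSMC3 had 177 and 145 under placebo, 206 and 662 under estrogen and 183 and 461 under the combination; both were below the floor on the 2 placebo arrays. PSMC4 had 602 and 582 under placebo, 193 and 582 under estrogen and 231 and 493 under the combination and did not separate low-signal from high-signal arrays.

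Of the non-ATPase subunits, PSMD1 and PSMD2 form the scaffold where shuttling ubiquitin receptors dock. PSMD1 had signals of 634 and 1449 under placebo, 1935 and 1739.6 under estrogen and 1694 and 53.1 under the combination. PSMD2 had 190.0 and 13.6 under placebo, 310.3 and 1260.3 under estrogen and 409.9 and 209 under the combination. Estrogen 2 was the highest array for PSMD2, and the placebo pair and estrogen+progesterone 2 were below the floor. The lid subunits PSMD6, PSMD7, PSMD8, PSMD11 and PSMD13 surround the deubiquitinase that removes the chain.

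PSMD11, a lid scaffold subunit, had 15.5 and 153 under placebo, 460.1 and 476 under estrogen and 185 and 23.05 under the combination. PSMD7, the partner of the lid deubiquitinase, had 405 and 525 under placebo, 1470.4 and 1491 under estrogen and 1633 and 38.99 under the combination. PSMD13, another lid subunit, had 2335 and 1726 under placebo, 2136 and 2239 under estrogen and 2482 and 400.4 under the combination and was above the floor on all 6 arrays. For PSMD7 and PSMD11 the estrogen pair lay close together and estrogen+progesterone 2 was below its floor. PSMD6 had 36.96 and 342 under placebo, 747 and 1005 under estrogen and 593 and 195 under the combination, and PSMD8 had 368 and 422 under placebo, 506 and 1075 under estrogen and 807 and 35.1 under the combination.

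PSMD9, a chaperone for ATPase assembly rather than a subunit of the finished cap, had 446 and 567 under placebo, 134 and 114.7 under estrogen and 305 and 624 under the combination. Here the placebo arrays and estrogen+progesterone 2 were high and the high-signal arrays low, the reverse of most members. PSME2, a subunit of the interferon-inducible activator of the core, had 403 and 469 under placebo, 363 and 512 under estrogen and 445 and 246 under the combination. PSME3, the nuclear activator, had 462 and 214 under placebo, 103 and 122 under estrogen and 155 and 176 under the combination. Neither activator separated the high-signal arrays upward from placebo.

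**Figure D2:**
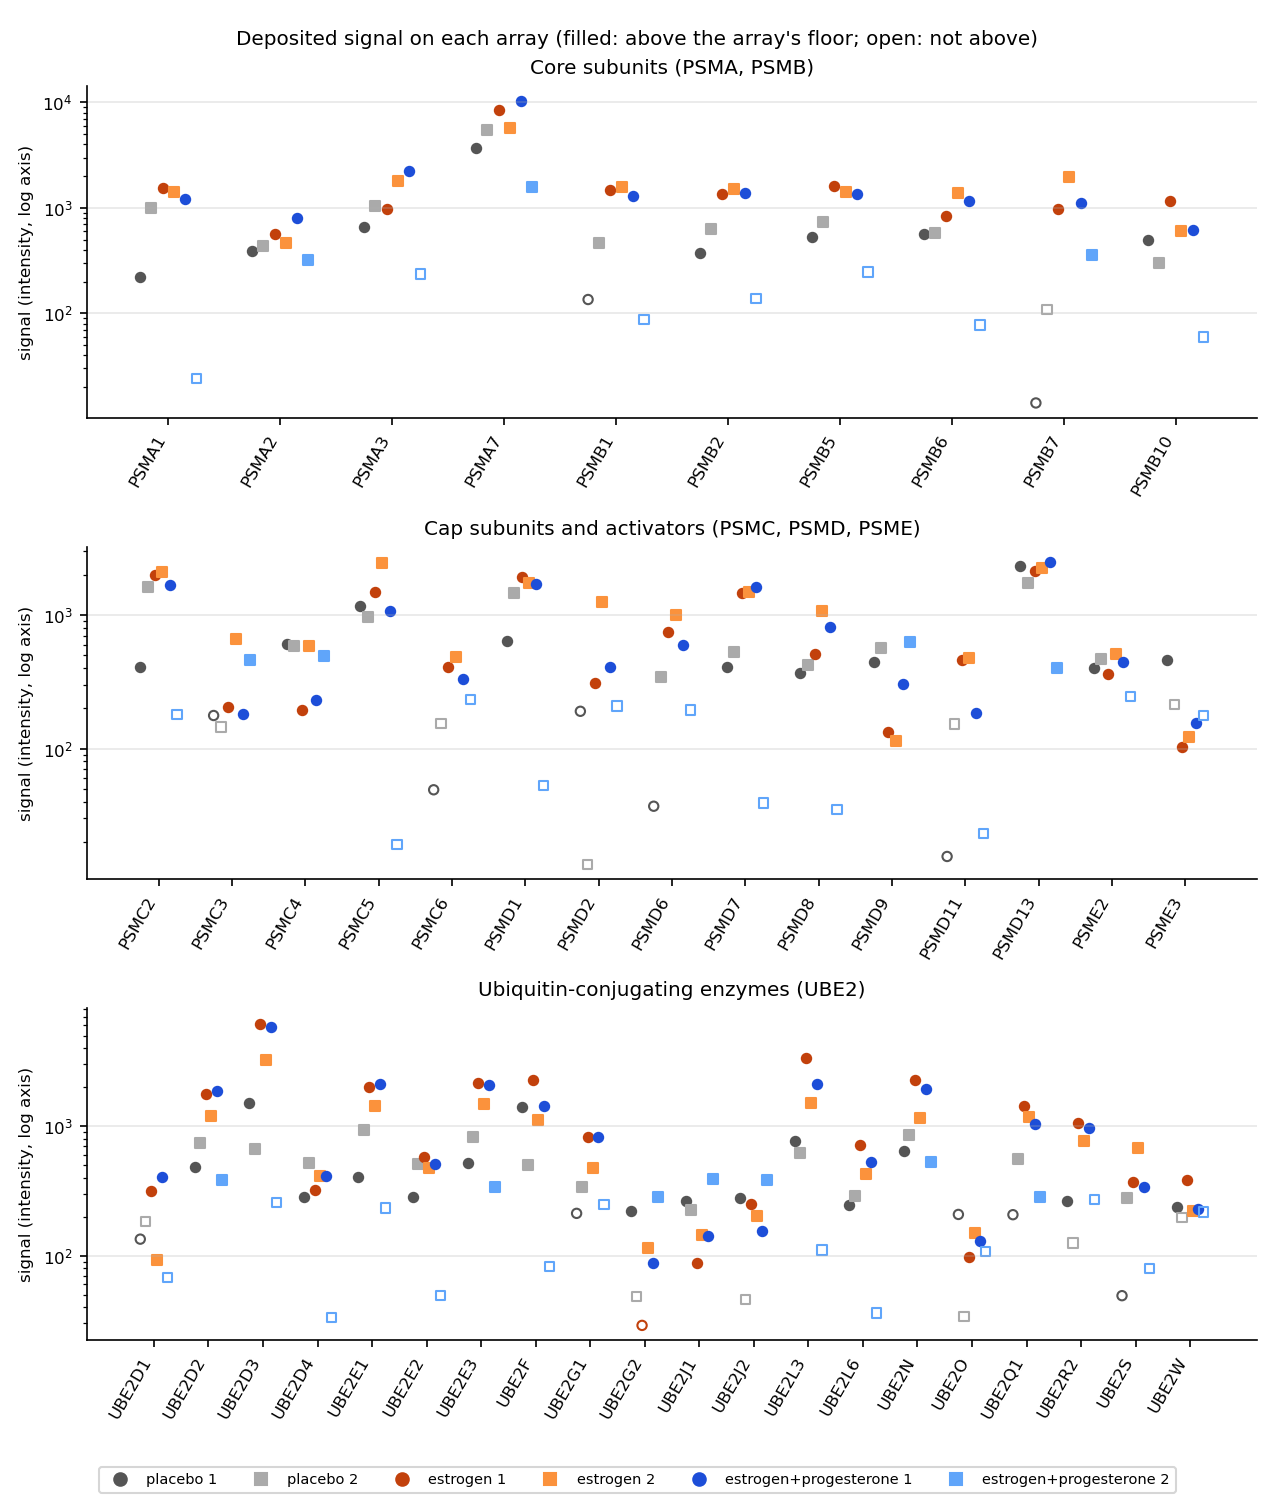
Deposited signal (intensity, log axis) of the 10 core, 15 cap and 20 E2 genes on each of the 6 arrays, 1 point per monkey; filled points are above that array's floor and open ones are not. Estrogen+progesterone 2 (light blue squares) is the lowest of the arrays for most genes, while estrogen+progesterone 1 lies near the estrogen arrays.

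The E2 enzymes were grouped by what they conjugate. The UBE2D family works with many ligases: UBE2D2 had signals of 485 and 746 under placebo, 1777 and 1193 under estrogen and 1862 and 388 under the combination. UBE2D3 had 1512 and 667 under placebo, 6213 and 3228 under estrogen and 5871 and 256 under the combination. UBE2D1 had 134 and 183 under placebo, 316 and 92.6 under estrogen and 404 and 67.95 under the combination, and UBE2D4 had 282 and 519 under placebo, 321 and 416 under estrogen and 411 and 33.2 under the combination. UBE2D2 and UBE2D3 were higher on the 3 high-signal arrays than on the other 3, and UBE2D4 overlapped between them. The related UBE2E1 had 402 and 927 under placebo, 2026 and 1440.4 under estrogen and 2121 and 234 under the combination, and UBE2E2 and UBE2E3 overlapped between estrogen and placebo on the normalized scale, as UBE2E1 did.

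UBE2N, which builds the linkage-specific chains used in signaling and DNA repair, had 638 and 862 under placebo, 2286 and 1159 under estrogen and 1941 and 531 under the combination. UBE2L3, which serves ligases of the HECT and parkin types, had 773 and 622 under placebo, 3352 and 1516 under estrogen and 2115 and 111 under the combination. UBE2R2, a partner of cullin ligases, had 265 and 125 under placebo, 1054 and 768 under estrogen and 964 and 272 under the combination. UBE2N stayed above the floor on all 6 arrays, and for UBE2R2 the high-signal arrays were several times above placebo as deposited. UBE2S, which extends chains for the anaphase-promoting complex, had 49.1 and 279 under placebo, 369 and 677 under estrogen and 338 and 79.6 under the combination. UBE2Q1, an E2 of a divergent family, had 207 and 560.0 under placebo, 1443 and 1175 under estrogen and 1049.5 and 284 under the combination, and UBE2W, which tags the amino end of its substrates, had 237 and 197 under placebo, 384 and 219.6 under estrogen and 227 and 217 under the combination. UBE2S and UBE2Q1 were highest on the 3 high-signal arrays, and UBE2W overlapped between them and the rest.

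Several E2 enzymes serve other purposes. UBE2G1, UBE2G2, UBE2J1 and UBE2J2 include the enzymes of degradation from the endoplasmic reticulum; UBE2J1 had 264 and 226 under placebo, 88.2 and 145 under estrogen and 142 and 389.9 under the combination and UBE2G1 212 and 337 under placebo, 827 and 472 under estrogen and 822 and 249 under the combination. UBE2J1 was highest on estrogen+progesterone 2 and UBE2G1 on the high-signal arrays. UBE2F, which conjugates the ubiquitin-like protein NEDD8, had 1396 and 502 under placebo, 2283 and 1115 under estrogen and 1443 and 82.3 under the combination. UBE2L6, the conjugating enzyme of ISG15, had 248 and 291 under placebo, 715 and 424 under estrogen and 531 and 36.1 under the combination. UBE2O, a large enzyme with ligase activity of its own, had 208 and 33.7 under placebo, 97.9 and 149.9 under estrogen and 129.6 and 107 under the combination, and UBE2M, the other NEDD8 enzyme, had 49.6 and 85.5 under placebo, 59.5 and 100.4 under estrogen and 64.8 and 139 under the combination. UBE2K, known as a huntingtin-interacting enzyme, had 66.4 and 54.8 under placebo, 140.3 and 25.3 under estrogen and 9.77 and 220.3 under the combination. Neither UBE2K nor UBE2M was tested; UBE2M was above the floor on the estrogen arrays alone and UBE2K on estrogen 1 alone. UBE2T, known from DNA crosslink repair, was above it on the 3 high-signal arrays, and UBE2U on none.

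Setting estrogen against placebo asks how estrogen by itself acted on the captured cells. PSMB7, PSMD2, PSMD11, PSMC6, PSMD6, UBE2R2, PSMB1 and UBE2S were among the members whose normalized values lay above both placebo arrays on both estrogen arrays, and PSMD9, PSMC4 and PSMD13 among those below. None passed the test. The first 4 did not reach the floor in either placebo monkey, so the size of their differences was not measured and has no order. Differences are between mean normalized log2(signal + 16) values and understate changes of low signals; each is given with its moderated standard error (SE) and rests on 2 monkeys per group. Since the placebo pair was low-signal and the estrogen pair high-signal, the treatment and the signal class of the arrays cannot be told apart.

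In the core, PSMB7 stood at 4.42 ± 0.96 and PSMB1 at 2.12 ± 1.28. PSMB2 stood at 0.75 ± 1.12 and PSMB5 at 0.30 ± 0.97, both smaller than their SE. In these 4 genes both estrogen arrays lay above both placebo arrays. PSMB6 and PSMB10 overlapped after normalization, at 0.084 ± 1.16 and 0.63 ± 1.14. Of the alpha subunits PSMA1 stood at 1.05 ± 1.53, PSMA2 at -0.022 ± 0.85, PSMA3 at -0.28 ± 1.08 and PSMA7 at -0.27 ± 0.81. The 6 beta genes all had a difference above 0 and 1 of 4 alpha genes did, with medians of 0.69 and -0.15. These counts depend on the scaling. Without quantile normalization all 10 core genes were above 0, with medians of 1.39 for beta and 0.65 for alpha genes. Second tested probe sets stood at -1.20 for PSMB1, -1.70 for PSMB2 and 2.79 for PSMB5.

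In the cap, PSMD2 stood at 3.26 ± 1.09, PSMD11 at 3.03 ± 1.17, PSMC6 at 2.54 ± 0.88, PSMD6 at 2.54 ± 1.16 and PSMC3 at 1.71 ± 0.88. In the other direction PSMD9 stood at -1.73 ± 0.90, PSMC4 at -1.11 ± 0.87 and PSMD13 at -1.01 ± 0.90; the last turned to 0.12 without quantile normalization. These 8 genes had groups that do not overlap on the normalized scale, as did PSMD7 at 0.86 ± 1.36. The deposited signals of PSMC4 and PSMD13 did overlap. Of the other ATPases, PSMC2 stood at 0.39 ± 1.18 and PSMC5 at -0.26 ± 1.39. The activators PSME2 and PSME3 stood at -0.29 ± 0.85 and -0.76 ± 0.91.

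Among E2 enzymes, UBE2R2 stood at 2.23 ± 0.94, UBE2S at 2.11 ± 1.12, UBE2Q1 at 1.42 ± 1.03, UBE2J2 at 1.36 ± 0.99 and UBE2O at 1.30 ± 0.96. UBE2G1 stood at 1.16 ± 0.94, UBE2L6 at 1.06 ± 1.18, UBE2D1 at 0.95 ± 1.06 and UBE2W at 0.92 ± 0.83. These 9 had groups that do not overlap on the normalized scale, while the deposited signals of UBE2J2, UBE2O, UBE2D1 and UBE2W did overlap. UBE2D2, UBE2D3, UBE2L3 and UBE2N overlapped after normalization, at 0.32 ± 0.89, 0.93 ± 1.25, 0.57 ± 1.21 and 0.087 ± 0.83. UBE2F, UBE2D4 and UBE2J1 were the E2 genes below 0, at -0.085, -0.12 and -0.12; UBE2F turned above 0 without quantile normalization.

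Several of these genes did not reach the floor in either placebo animal, so a bound replaces the fold, taken from the estrogen mean against the higher of floor and measured value on each placebo array. The estrogen pair was higher by at least 5.75-fold for PSMB7, 3.32-fold for PSMD2, 2.58-fold for PSMD11, 2.51-fold for PSMC6 and 2.30-fold for PSMC3 on the normalized scale. Without quantile normalization, an alternative chosen after seeing the data, the bounds were 5.95, 2.75, 2.07, 1.98 and 1.66 in the same order. As deposited, estrogen 1 had 206 for PSMC3, below the placebo floors of 216 and 221, so its bound rests on estrogen 2 at 662. UBE2D1 and UBE2O were below the floor with placebo too and get no bound, since without normalization their estrogen mean did not exceed the placebo floor. The bounds describe these arrays and allow neither for the spread between animals nor for array signal. The adjusted p from limma was 0.635 for PSMB7, PSMD2, PSMD11 and PSMC6, and 0.651 for PSMC3.

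Counted over tested genes, differences were above 0 for 7 of 10 core genes (median 0.47), 8 of 15 cap genes (median 0.39) and 17 of 20 E2 genes (median 0.74), beside 60.6% of all 9781 tested genes (median 0.28). Over all members, tested or not, it was 7 of 12, 8 of 15 and 20 of 24, beside 56.1% of 14132 genes. On the normalized scale estrogen was higher without overlap for 4 core, 6 cap and 9 E2 genes, beside 30.6% of all tested genes. It was lower without overlap for 3 cap genes and no core or E2 gene, beside 19.8% of all. Limma called 0 members and 0% of tested genes at an adjusted p under 0.05. Unadjusted p values are counted by the probe set that stands for each gene. Under 0.05 on the higher side were PSMB7, PSMD2, PSMC6, PSMD11 and UBE2R2, where 3.68% of tested genes stood. On the lower side, where 1.24% stood, no member gene was. Another tested probe set of PSMA3 was, at -2.40 ± 0.96 (limma, unadjusted p 0.0315). Other probe sets of PSMB5, UBE2D3, UBE2J1 and UBE2R2 were under 0.05 on the higher side. PSMB7, PSMD2, PSMC6 and PSMD11 were below the floor with placebo. Their hormone arrays raised the mean that the filter used, so these p values are not free of the filter.

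Array weights came out equal within each group (0.793 for placebo, 3.95 for estrogen and 0.320 for both hormones), and so weighted groups rather than single arrays. With them limma called PSMB7, with an adjusted p of 0.0306, and 0.818% of all tested genes. The limit of the filter given above holds for this call too. With the class of low-signal or high-signal array as a covariate, which takes the class difference from the 2 arrays of both hormones, the medians were -2.34, -1.57 and -0.99 for core, cap and E2 genes, and 25 of the 45 genes changed sign. In that fit PSMB7 stood at 3.13, PSMC3 at 2.98, PSMD2 at 1.73 and PSMC6 at 1.40, PSMD11 at -0.094 and UBE2R2 at 0.38.

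**Figure D3:**
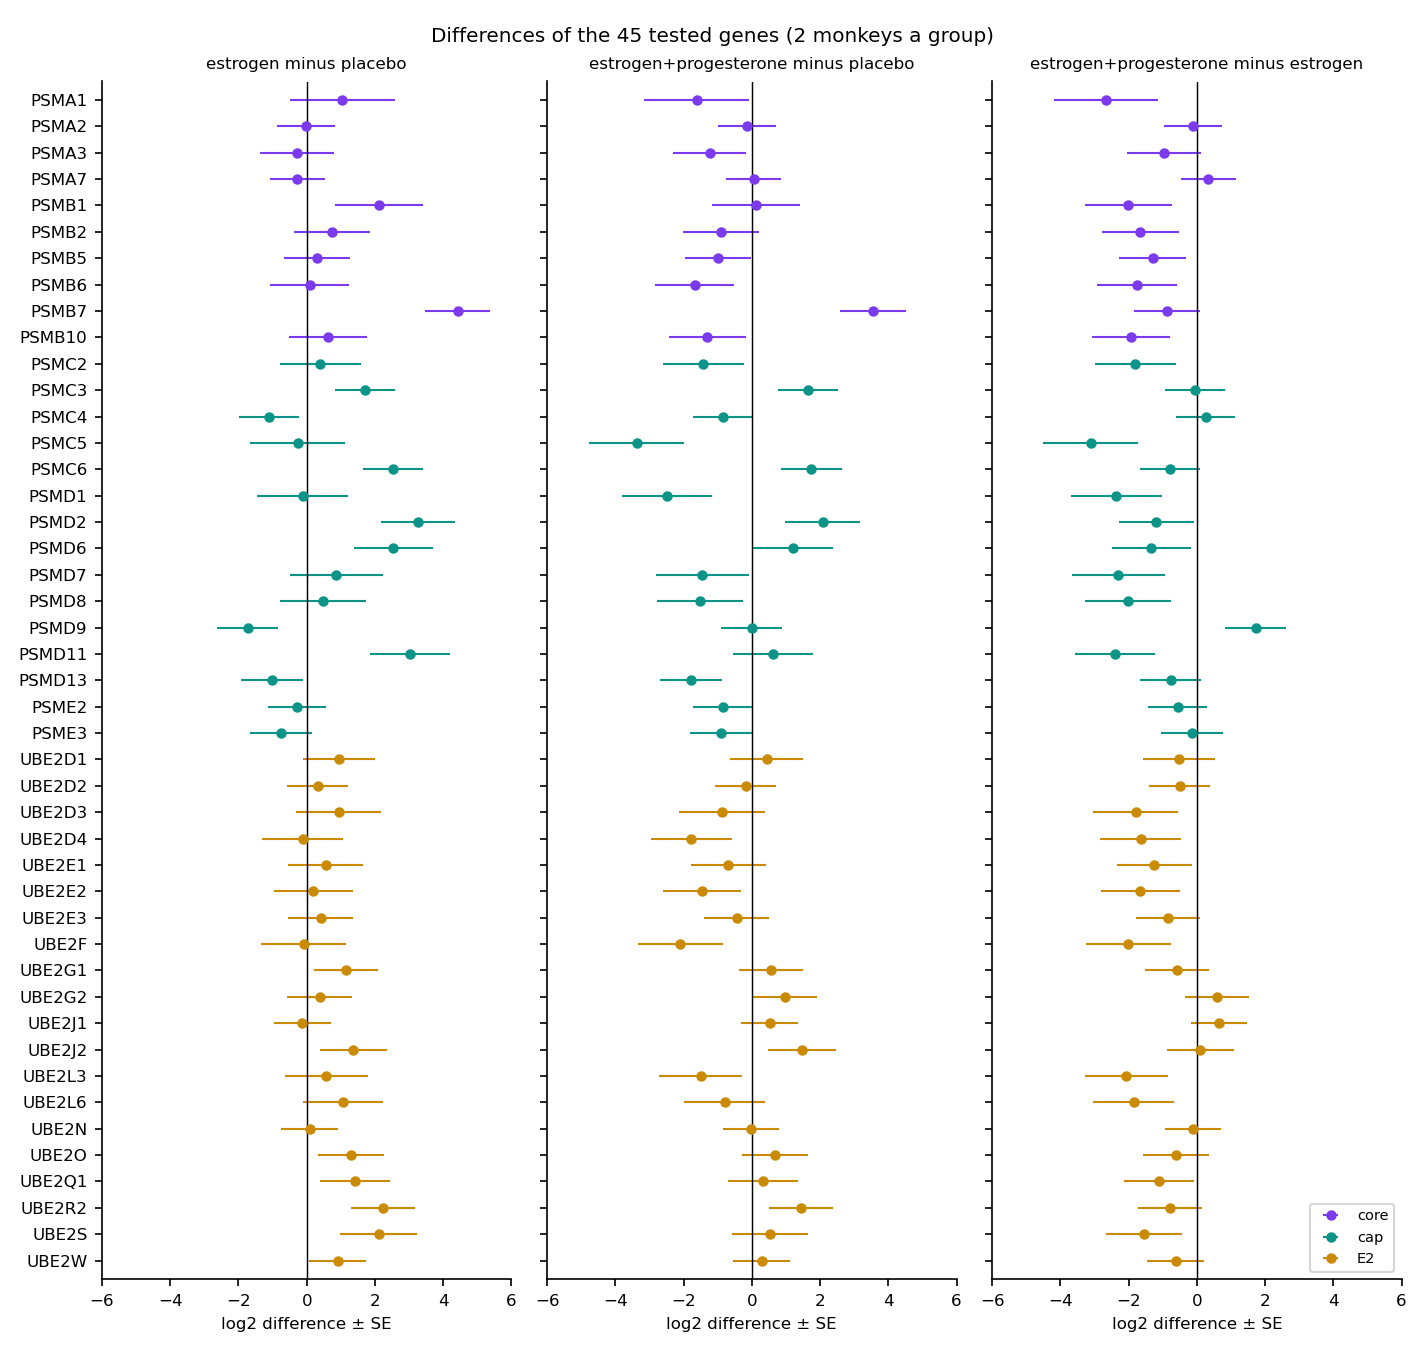
Log2 difference with its moderated SE (horizontal axes) of the 45 tested core, cap and E2 genes (vertical axis) in the 3 comparisons, 2 monkeys a group. PSMB7, below the floor with placebo, is plotted at 4.42 and 3.55 in the comparisons with placebo, and most genes lie left of 0 when both hormones are set against estrogen.

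Setting both hormones against placebo asks how the combined treatment acted. After normalization PSMB7, PSMD2, PSMC6 and PSMC3 stood above placebo on both arrays, and PSMC5 and PSMD13 below it. As deposited, PSMC5 and PSMD13 overlapped with placebo. PSMC5 had 1161 and 973 under placebo and 1075 on estrogen+progesterone 1. PSMD13 had 2335 and 1726 under placebo and 2482 on estrogen+progesterone 1. Core and cap genes were mostly below 0 and E2 genes evenly divided. None passed the test, and the direction of the group medians turned with the array of the combined treatment that was left out. This comparison shares its placebo arrays with the one before.

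PSMB7 stood at 3.55 ± 0.96, PSMD2 at 2.07 ± 1.09, PSMC6 at 1.75 ± 0.88 and PSMC3 at 1.65 ± 0.88. PSMB7 and PSMC3 exceeded the array's floor in both animals of the combined treatment and in neither placebo animal. They were higher by at least 3.15-fold and 2.20-fold on the normalized scale, and 2.77-fold and 1.31-fold without normalization. As deposited, PSMC3 had 183 on estrogen+progesterone 1, below the placebo floors of 216 and 221. Its bound rests on estrogen+progesterone 2 at 461. PSMD2 and PSMC6 were above the floor on 1 array of the combined treatment and have no bound. Without estrogen+progesterone 2 the values were 4.20 for PSMB7, 2.84 for PSMD2, 2.32 for PSMC6 and 1.02 for PSMC3. Without estrogen+progesterone 1 they were 2.90, 1.31, 1.18 and 2.29.

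PSMC5 stood at -3.37 ± 1.39, which became -0.89 without estrogen+progesterone 2. PSMD13 stood at -1.78 ± 0.90, and -0.87 without that array. PSMC4 and PSME2 also lay below placebo on both arrays after normalization, at -0.85 ± 0.87 and -0.86 ± 0.85. The deposited signals of PSME2 overlapped with placebo. The catalytic subunits PSMB5 and PSMB6 stood at -0.996 ± 0.97 and -1.67 ± 1.16, against 0.22 and 0.17 without it. No E2 gene had groups that do not overlap on the normalized scale. UBE2J2 stood at 1.47 ± 0.99 and UBE2F at -2.10 ± 1.25.

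Differences were above 0 for 3 of 10 core genes (median -0.95), 5 of 15 cap genes (median -0.86) and 10 of 20 E2 genes (median 0.13), beside 46.2% of all tested genes (median -0.10). On the normalized scale both hormones were higher without overlap for PSMB7 and 3 cap genes, beside 11.7% of all tested genes. They were lower without overlap for 4 cap genes, beside 12.7% of all. Limma called 0 members and 0% of tested genes. By the probe set that stands for each gene, PSMB7 was under an unadjusted p of 0.05 on the higher side. There 1.34% of tested genes stood. PSMC5 was under it on the lower side, where 1.04% stood. Other tested probe sets were too (limma, unadjusted): UBE2D3 at 2.02 (p 0.0465) and UBE2J1 at -2.40 (p 0.0346). PSMB7 has the limit of the filter given for estrogen. The adjusted p was 0.992 for PSMB7 and PSMC5. Without estrogen+progesterone 2 the medians were 0.44, 0.17 and 0.77, with 10 of 10, 8 of 15 and 19 of 20 genes above 0, beside a median of 0.31 over all tested genes. Without estrogen+progesterone 1 they were -2.38, -1.32 and -0.83, beside -0.45.

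The comparison of both hormones with estrogen asks what progesterone added. Of the 45 genes 39 stood lower with both hormones, PSMC5, PSMA1, PSMD11, PSMD1 and PSMD7 among them, and PSMD9 stood higher. None passed the test. Those 5 were below the floor on estrogen+progesterone 2, so the size of their differences has no order. The 2 arrays of the combined treatment did not agree: estrogen+progesterone 1 lay close to the estrogen arrays, and estrogen+progesterone 2 below them for most members.

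PSMC5 stood at -3.11 ± 1.39, PSMA1 at -2.67 ± 1.53, PSMD11 at -2.41 ± 1.17, PSMD1 at -2.36 ± 1.33, PSMB1 at -2.01 ± 1.28 and PSMB5 at -1.30 ± 0.97. Of the E2 enzymes UBE2S stood at -1.56 ± 1.12 and UBE2Q1 at -1.11 ± 1.03. In these 8, and in PSMC2, PSMC6 and PSMD6, both arrays lay below both estrogen arrays. Without estrogen+progesterone 2 they became -0.63 for PSMC5, -0.19 for PSMA1, -0.85 for PSMD11, -0.084 for PSMD1, -0.16 for PSMB1, -0.081 for PSMB5, -0.33 for UBE2S and -0.19 for UBE2Q1. PSMD9 stood at 1.73 ± 0.90, and 0.86 without that array. By its other tested probe sets it stood at -0.49 and -2.19 over both arrays.

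PSMB7 stood at -0.87 ± 0.96 here, and -0.22 without estrogen+progesterone 2. UBE2J1 at 0.65 ± 0.83 and PSMA7 at 0.33 ± 0.81 were above both estrogen arrays on both arrays of the combined treatment after normalization, by less than their SE. The direction of PSMA7 turned, to -0.80 without quantile normalization and -1.60 with median centring, and the deposited signals of UBE2J1 overlapped. By other tested probe sets PSMA7 stood at -2.86 and UBE2J1 at -0.27 and -1.90. UBE2D3 and UBE2L3 stood at -1.80 ± 1.25 and -2.07 ± 1.21, with groups that overlap, since estrogen+progesterone 1 lay within the range of the estrogen pair. UBE2N stood at -0.12 ± 0.83.

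Differences were above 0 for 1 of 10 core genes (median -1.48), 2 of 15 cap genes (median -1.19) and 3 of 20 E2 genes (median -0.82), beside 34.0% of all tested genes (median -0.44). Over all members, tested or not, it was 3 of 12, 2 of 15 and 3 of 24, beside 40.5% of 14132 genes. Groups did not overlap, both hormones being lower, for 3 core, 6 cap and 2 E2 genes, where 17.9% of tested genes did so. On the normalized scale both hormones were higher without overlap for PSMA7, PSMD9 and UBE2J1, where 13.5% of tested genes were. All other tested probe sets of these 3 genes stood below 0. Limma called 0 members and 0% of tested genes. Unadjusted p values are counted by the probe set that stands for each gene. PSMC5 alone was under 0.05 on the lower side, where 0.225% of tested genes stood. On the higher side, where 0.481% stood, no member gene was. Another tested probe set of PSMB2 stood higher, at 3.20 ± 0.97 (limma, unadjusted p 0.0081), against -1.65 by the one used. It had 29.0 and 16.5 under estrogen, below the floor, and 196 and 619 under the combination. The adjusted p was 0.799 for PSMC5.

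Without estrogen+progesterone 2 the medians were -0.043, -0.22 and 0.13, with 4 of 10, 6 of 15 and 13 of 20 genes above 0, beside 0.049 over all tested genes. Without estrogen+progesterone 1, which leaves estrogen+progesterone 2 as a lone array assumed to vary like the others, they were -2.91, -1.96 and -1.91, beside -0.88. In that fit limma called 16 of the 45 genes at an adjusted p under 0.05, or 35.6%, and 16.5% of all tested genes. The 15 called lower were PSMA1, PSMB2, PSMB6, PSMB10, PSMC5, PSMD1, PSMD7, PSMD8, PSMD11, UBE2D3, UBE2D4, UBE2E2, UBE2F, UBE2L3 and UBE2L6, and PSMD9 was called higher at 2.60. These calls describe 1 monkey's array, and all 15 genes lower there were below its floor, so their differences have no order.

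Set directly against each other, estrogen+progesterone 2 was lower than estrogen+progesterone 1 for 10 of 10 core, 12 of 15 cap and 17 of 20 E2 genes, beside 66.8% of all tested genes. The median difference of estrogen+progesterone 2 minus estrogen+progesterone 1 was -3.18, -1.82 and -1.98 in the 3 groups, beside -0.89. The estrogen arrays, by contrast, differed from each other by a median of 0.38, 0.31 and 0.40 in size, beside 0.36 over all. Estrogen+progesterone 1 differed from the estrogen mean by a median of 0.21, 0.25 and 0.19 in size, beside 0.25.

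**Figure D4:**
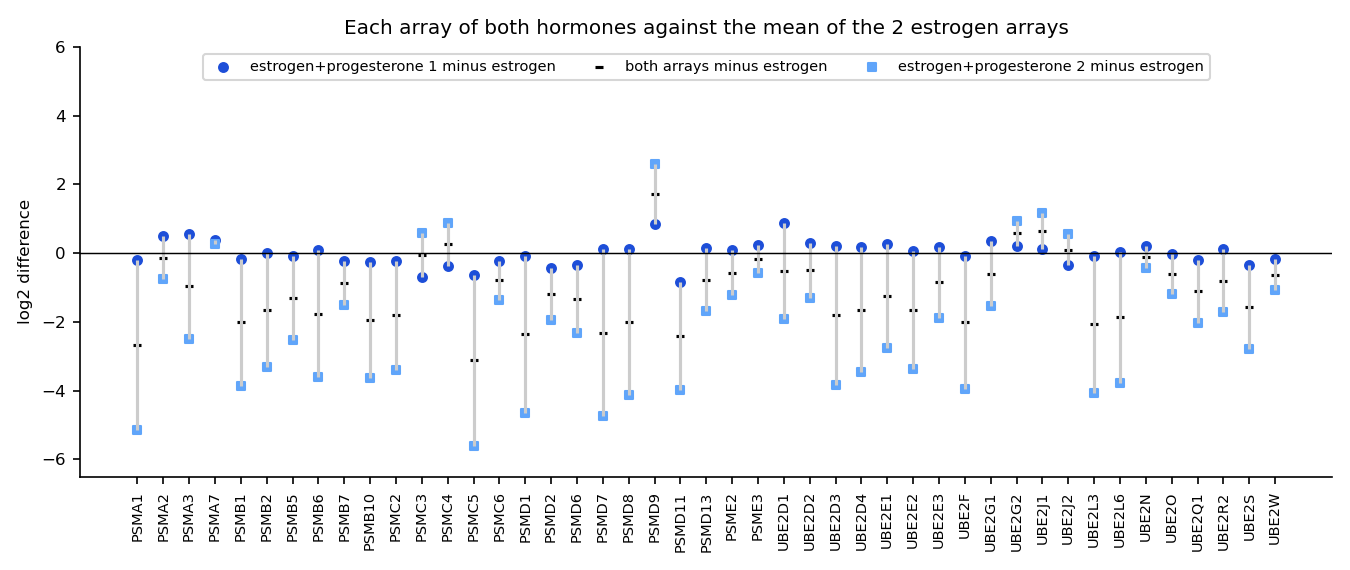
Log2 difference (vertical axis) of estrogen+progesterone 1 (circles), of estrogen+progesterone 2 (squares) and of their mean (dashes) against the mean of the 2 estrogen arrays, for each of the 45 genes. Circles stay near 0, between -0.85 and 0.89, while squares reach -5.59 for PSMC5.

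Probe sets of 1 gene often gave different answers. Of 7 core genes with several tested probe sets, 1 had all of them on the same side of 0 for estrogen minus placebo, of 5 cap genes 2 did, and of 11 E2 genes 8 did, beside 52.2% of 3276 genes. PSMD9 stood at -1.73 by the probe set used and at 1.23 and 1.30 by the others. One of these had signals of 229.7 and 305 under placebo, 676 and 599 under estrogen and 743 and 12.5 under the combination, high where the first was low. PSMC4 stood at -1.11 and, by a second probe set, 1.66; that probe set had 258 and 216 under placebo, 477 and 1087 under estrogen and 457 and 19.8 under the combination. So the negative differences of PSMD9 and PSMC4 hold for 1 tested probe set each. The higher value of PSMD9 on estrogen+progesterone 2 than on the estrogen arrays also holds for 1 tested probe set.

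In the core, PSMB1 gave 2.12 and -1.20, and PSMB2 gave 0.75 and -1.70. PSMB5, the core gene whose probe sets lay on the same side, gave 0.30 and 2.79. PSMA3 ranged from -2.40 to 2.86 over 3 probe sets, PSMA2 from -0.022 to 1.96 over 5, and PSMA7 gave -0.27 and 1.98. UBE2R2, in contrast, gave 2.23, 3.12 and 2.01, and UBE2S gave 2.11, 1.74 and 0.88. UBE2D3 was above 0 on all 4 of its probe sets, from 0.53 to 2.51. Probe sets whose names carry an s or x suffix can share sequence with related transcripts by the maker's naming, which matters for families such as UBE2D. PSMB7, PSMD2, PSMD11, PSMC6 and PSMD6 had 1 tested probe set each, so no other tested probe set could be set beside theirs. PSMD11 and PSMD6 also had an untested probe set, below the floor on most arrays, that overlapped between the groups. For PSMD11 it had 142 and 55.5 under placebo and 15.6 and 275 under estrogen. For PSMD6 it had 21.7 and 248 under placebo and 15.3 and 36.3 under estrogen.

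**Figure D5:**
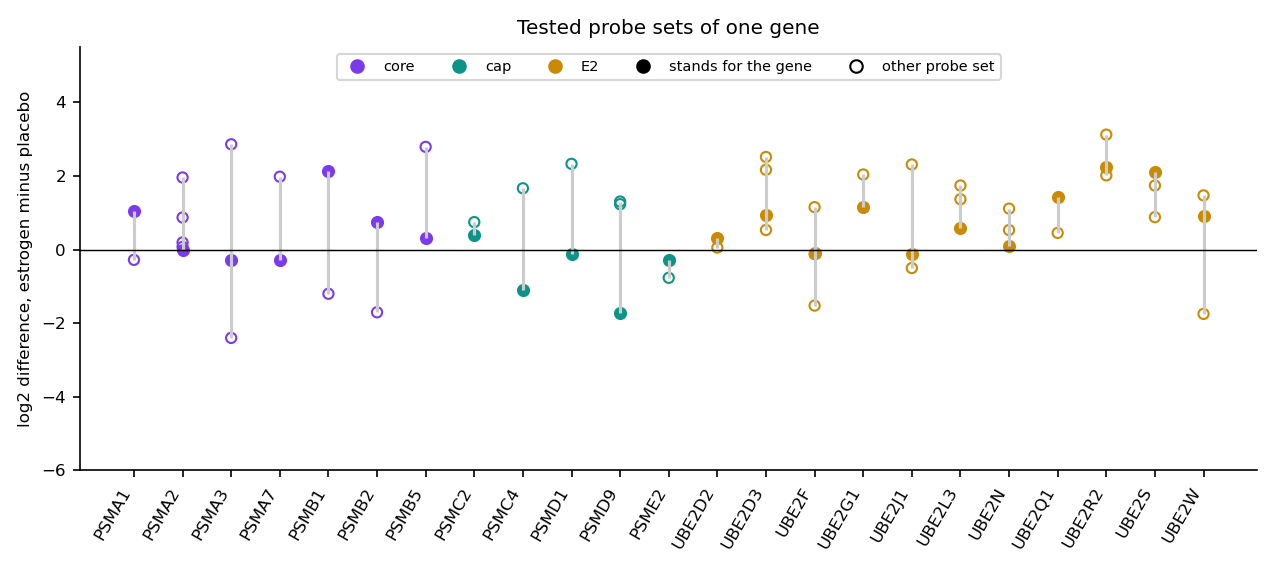
Log2 difference of estrogen minus placebo (vertical axis) for every tested probe set of the 23 genes with several; filled points are the probe sets that stand for the gene and open points the others. The points of PSMA3 span -2.40 to 2.86, while all points of UBE2R2 and UBE2S lie above 0.

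PSMC3IP had 8 probe sets, 7 of them tested. Its brightest had signals of 467 and 275 under placebo, 1126 and 3837 under estrogen and 961 and 657 under the combination and stood at 1.91 ± 0.94 for estrogen minus placebo, 1.41 ± 0.94 for the combination minus placebo and -0.49 ± 0.94 for the combination minus estrogen, without passing the test. Of the 7, 5 stood above 0 with estrogen, from 1.44 to 2.45, and the others at -0.68 and -0.17.

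Other genes of the pathway were read from lists of names. Beside them, 60.6% of all tested genes stood above 0 for estrogen minus placebo (median 0.28). For the combination minus placebo 46.2% did (median -0.10), and for the combination minus estrogen 34.0% (median -0.44). Of 11 tested genes of proteasome assembly and regulation (12 named of 15 listed), 7 stood above 0 for estrogen minus placebo (median 0.24), 2 for the combination minus placebo (-0.33) and 2 for the combination minus estrogen (-0.99). PSMG1, an assembly chaperone of the core, had 1861 and 1782 under placebo, 5475 and 4826 under estrogen and 9368 and 77.1 under the combination. PSMG1 was lowest on estrogen+progesterone 2. NFE2L2, a stress transcription factor that induces subunits, stood at -0.56 ± 0.81 with estrogen against placebo.

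Of 8 tested genes for ubiquitin, its relatives and their activating enzymes (8 named of 18 listed), 6, 4 and 1 stood above 0 in the 3 comparisons, in the same order, with medians of 0.79, -0.46 and -1.03. UBA1, the main ubiquitin-activating enzyme, had 813 and 432 under placebo, 1245 and 2704 under estrogen and 1456 and 26.3 under the combination. SUMO2, a ubiquitin-like modifier, stood at 1.90 ± 0.999 with estrogen, and UBA6, the alternative activating enzyme, at -0.90 ± 1.24. UBA6 was high on placebo 1 and estrogen+progesterone 2, unlike UBA1.

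Of 23 tested ligase and cullin genes (25 named of 30 listed), 17, 10 and 4 stood above 0, with medians of 0.18, -0.22 and -0.51. UBE3A, the ligase of Angelman syndrome, was lowest in both comparisons with placebo, at -0.66 ± 0.90 and -1.69 ± 0.90. Its signals were 1199 and 1276 under placebo, 1595 and 1696 under estrogen and 1489.9 and 324 under the combination, so the estrogen arrays were higher as deposited and lower after normalization. CBLB, a ligase of receptor signaling, stood highest with estrogen at 1.67 ± 0.90. Of 17 tested deubiquitinases and ubiquitin receptors (17 named of 25 listed), 9, 6 and 5 stood above 0, with medians of 0.21, -0.41 and -0.89.

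Among these, USP14, a deubiquitinase of the cap, had 215 and 215 under placebo, 37.8 and 57.6 under estrogen and 1344 and 122 under the combination, so that estrogen+progesterone 1 alone was high. UCHL5, the other cap-bound one beside the lid enzyme, had 849 and 1118 under placebo, 2831 and 2322 under estrogen and 3038 and 11.04 under the combination, lowest on estrogen+progesterone 2. BAG6, a chaperone for misfolded membrane proteins, stood at 2.68 ± 1.12 with estrogen and 2.64 ± 1.12 with both hormones over the same placebo arrays. Its signals were 14.9 and 241 under placebo, 239 and 860 under estrogen and 223 and 501 under the combination. As deposited, placebo 2 lay above estrogen 1 and estrogen+progesterone 1, and placebo 1 was far lower. Limma called 0 genes of the 4 lists in any comparison at an adjusted p under 0.05. BAG6 reached an unadjusted p under 0.05 on the higher side in both comparisons with placebo, where 3.68% and 1.34% of all tested genes did. USP5, a deubiquitinase of free chains named here after its value was seen, reached it on the lower side with both hormones against placebo. On that side 1.04% of all tested genes did. UCHL1, of the last list, is also among the neuronal markers.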

How the data were processed

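RNA from 6 captured samples, 2 per group, was read on Affymetrix rhesus arrays, 1 array per monkey, per the labels. The deposited values are intensities on a linear scale, 1 per probe set, which the values show to be scaled by the authors to a trimmed mean near 200 on each array; the software, detection calls and genome build were not given in the sources used here. Of 52865 probe sets, 99 are controls; of the rest 24956 carry 1 gene symbol in the platform annotation, 361 several and 27449 none, and 24616 matched a RefSeq gene table used for names only (all 114 member probe sets did). Probe sets with several symbols, 8 of which include a member, were left out.

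Values were taken to log2(signal + 16), quantile-normalized, filtered at the 50th percentile of the mean (26383 probe sets, 9781 genes) and fitted with limma 3.58.1 in R 4.3.3 over all 6 arrays, with 3 residual degrees of freedom and Benjamini-Hochberg adjustment over all tested probe sets at 0.05. The median moderated SE was 0.945, and 2 arrays a group limit the precision. Replicates are separate animals, read on 1 array each. Members, lists and named genes were chosen with earlier results of these data known. A list of 46 genes was named whatever their values, of which 14 had no probe set named here. To these were added, in each comparison and set, up to 3 higher and 3 lower genes of smallest unadjusted p among those whose groups do not overlap and whose log2 difference is at least 1 in size. Other members are named by role or as counts require, after their values were seen. Alternatives were other offsets, no quantile normalization, median centring, other filters, a replicate block, a trended prior, array weights, the 2 groups alone, array signal as a covariate, the high-signal arrays only, other probe sets, and each array left out. No sequence or coordinate is given, since the tables used here hold none for these probe sets.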

Additional observations from a re-analysis of the deposited data

How the results depend on the processing

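Medians of core, cap and E2 genes are given in that order. For estrogen minus placebo they were 2.42, 2.17 and 2.30 with median centring, which moves all tested genes by 1.21, and -2.34, -1.57 and -0.99 with array signal as a covariate; array weights called 434 probe sets. For both hormones minus placebo the core median was 0.31 with median centring (a shift of 0.43 over all genes) and -2.38 with the covariate, which put the E2 median at -0.83. For both hormones minus estrogen the E2 median was -1.72 with median centring (a shift of -0.65). The covariate and the high-signal arrays alone each gave -0.043, -0.22 and 0.13. By construction both set estrogen+progesterone 1 alone against estrogen, as does leaving out estrogen+progesterone 2, so these are 1 contrast and not separate checks. Leaving out 1 array in turn gave ranges of 0.059 to 0.47, 0.059 to 0.64 and 0.50 to 1.08 for estrogen minus placebo; the core median was lowest without placebo 1 and the cap median without estrogen 2. The ranges were -2.38 to 0.44, -1.32 to 0.17 and -0.83 to 0.77 for both hormones minus placebo, and -2.91 to -0.043, -1.96 to -0.22 and -1.91 to 0.13 for both hormones minus estrogen. Leaving out 1 array called 0 to 4200 probe sets for both hormones minus estrogen, 4200 without estrogen+progesterone 1, and 0 in the other comparisons. The cause of these differences was not tested. Of 45 genes, 8, 8 and 2 turned sign without quantile normalization in the 3 comparisons and 11, 11 and 3 with median centring; none did with an offset of 1, no filter, a trended prior or array weights. The replicate block called 0 probe sets in each comparison and turned no sign; the animals share only a number, and deviations of same-numbered arrays correlated at -0.032, -0.063 and 0.082. The high-signal fit could not be made against placebo, which has no such array. On low-signal arrays the floor limits what can be read of members below it.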
